A study of Mus musculus with 6 samples.

Results

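The 3 control clones of MIN6 are described here, and they make up 3 of the 6 libraries of the series. MIN6 is a mouse insulinoma line, a tumor-derived stand-in for the pancreatic β cell. The clones were chosen by their control genotype label alone. Each carried Cas9 and a lentiviral guide RNA against intron 2 of Snd1, was selected with puromycin and was expanded from a single cell. The study set them beside clones cut in exon 2 of Snd1, which are left out here. Control 1, control 2 and control 3 each gave 1 library, so a difference between clones and a difference between libraries cannot be told apart, and no test between clones was made. Errors given as ± are the SD over the 3 clones.

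β cells make insulin as a preproprotein, cut it in secretory granules and release it when glucose metabolism closes potassium channels and lets calcium in. Their identity is kept by homeodomain, bHLH and bZIP transcription factors such as Pdx1, Neurod1 and Mafa, which bind insulin gene control regions. Islets also hold α cells, which make glucagon, δ cells, which make somatostatin, and PP and ε cells, and they lie among acinar and duct cells.

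The files held 53801 mouse genes per clone as TPM, a transcript level per length that sums to 1000000 in each library. Whole reads could be computed back from the TPM, and summed to 33116880, 31343396 and 25895620 in controls 1, 2 and 3. Such sums exceed the reads per library given in the paper, where sequencing was paired-end. Whether the mates of a pair were counted apart was not tested. Every limit or interval drawn from these reads treats each as independent, and would be too narrow if mates were counted apart. A count of 0 for a gene of 3000 bases allows up to 3 reads, or 0.175, 0.184 and 0.202 TPM, and these limits cover counting error only. At least 1 TPM in all 3 clones was reached by 13632 genes, 25.3% of those listed, and by 11395 protein-coding genes, 51.9% of the 21967 listed. Snd1 itself, which the intronic guide was not meant to disrupt, stood at 113, 119 and 112 TPM.

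The promoters of Ins1 and Iapp are shown because, of the hormone genes among the 20 of highest mean, these had a 2-fold range over the clones. The sequences are those of RefSeq for GRCm38.p6, which has the coordinates of mm10. Ins1 lies at chr19:52264047-52264346 and Iapp at chr6:142298175-142298474, both on the plus strand, from 250 bases before to 50 bases after the gene start. Capitals mark TAAT, the core many homeodomain factors bind, and CATCTG, an E-box of the kind bHLH factors bind, each searched on both strands.
Ins1: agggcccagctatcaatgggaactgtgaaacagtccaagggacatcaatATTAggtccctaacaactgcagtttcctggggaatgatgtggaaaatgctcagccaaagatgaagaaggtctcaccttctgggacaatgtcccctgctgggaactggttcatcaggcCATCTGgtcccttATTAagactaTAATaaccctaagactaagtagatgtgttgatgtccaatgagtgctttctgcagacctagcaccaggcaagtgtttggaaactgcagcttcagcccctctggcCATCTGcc
Iapp: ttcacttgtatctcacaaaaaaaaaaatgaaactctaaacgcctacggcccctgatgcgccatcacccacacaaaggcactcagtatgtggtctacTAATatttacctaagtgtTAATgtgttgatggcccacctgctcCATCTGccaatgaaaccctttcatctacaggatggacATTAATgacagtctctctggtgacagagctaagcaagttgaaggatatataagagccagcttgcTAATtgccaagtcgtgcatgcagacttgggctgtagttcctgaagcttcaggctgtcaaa
The Ins1 window held 3 TAAT and 2 CATCTG matches, and the Iapp window held 5 TAAT matches, of which a pair overlap, and 1 CATCTG match. Of 32851 windows of 300 bases in the same set, 58.0% held TAAT, with a median of 1 match, 17.2% held CATCTG and 1.83% held CATCTG at least 2 times. These matches describe the letters of the windows only.

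The 20 genes of highest mean held 28.8% ± 1.81 of the TPM (n = 3 clones) but 8.30% ± 0.577 of the reads, and the 100 highest held 40.01% ± 2.14 of the TPM and 16.02% ± 0.961 of the reads. Among the 20 were 7 mitochondrial genes, 8 genes for secreted hormones or granule proteins (Iapp, Npy, Ins2, Ins1, Chga, Chgb, Scg2 and Cpe), and the transthyretin gene Ttr. The mitochondrial mt-Co1, a subunit of cytochrome c oxidase, led with 38618, 40684 and 23289 TPM in controls 1, 2 and 3. Iapp, which encodes the islet amyloid polypeptide co-secreted with insulin, came next with 22390, 25567 and 49144 TPM. The neuropeptide gene Npy was at place 3 with 28619, 19690 and 30551 TPM. Ins2 was at place 8 with 14480, 13976 and 18632 TPM, and Ins1 was at place 18 with 2429, 4086 and 6033 TPM. Ttr, which encodes a thyroid hormone and retinol carrier that islet cells also make, gave 17590, 20138 and 14122 TPM. The SDs of these neighbours exceed most of the steps between them, so the order from mt-Co1 to Ttr is not resolved by 3 clones. In control 3 Iapp and Npy lay above mt-Co1.

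**Figure D1:**
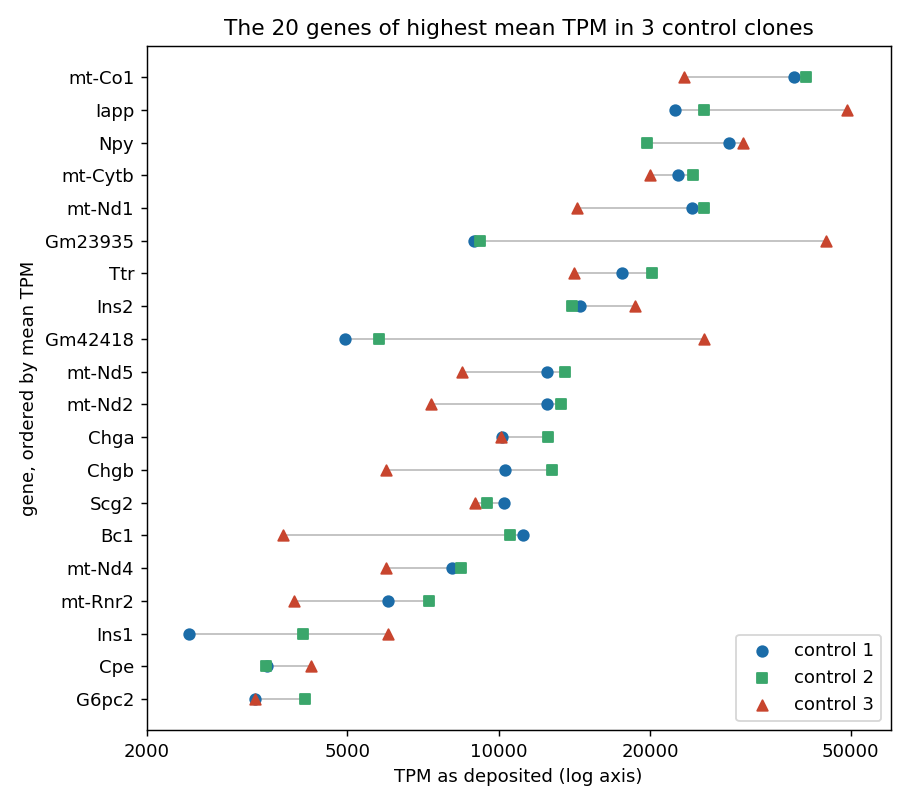
TPM as deposited (log axis) of the 20 genes of highest mean, ordered by mean, with 1 point for each control clone and a grey line from the lowest to the highest. Control 3 lies apart for Iapp, Bc1, Gm23935 and Gm42418, while Scg2 stays between 8987 and 10244 TPM in all 3 clones.

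The place of insulin depended on how gene length was counted. In the deposited TPM a base that lies in several annotated transcripts adds to a gene's length several times. For Ins2, whose annotation spans chr7:142678656-142743381, that length is 4494 bases against 1312 when each exonic base is counted once. On the second scale Ins2 was the most abundant gene of all, at 30767, 29870 and 39954 TPM. Iapp and mt-Co1 then followed at places 2 and 3. Ins1 and Ins2 together held 1.99% ± 0.419 of the TPM as deposited and 3.60% ± 0.653 with each exonic base counted once (n = 3). The coding sequences of Ins1 and Ins2 are near-identical, so the split of reads between them is uncertain. Both were highest in control 3. The ratio of the highest to the lowest clone was 2.48 for Ins1 and 1.33 for Ins2.

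Of 28 islet and gut hormone genes or hormone-making enzymes, 10 reached 1 TPM in every clone, and 10 had 3 reads or fewer in each clone. Of the 12 averaging 1 TPM or more, 7 had a 2-fold or larger range over the clones on the log2(TPM + 1) scale, beside 14.5% of all 15311 genes and 8.32% of the 11965 protein-coding genes at that level. Cck, which encodes the gut peptide cholecystokinin, gave 2368, 3174 and 1803 TPM. The glucagon gene Gcg was present at 267, 174 and 314 TPM, far under Ins2 in every clone. The secretin gene Sct gave 340, 192 and 117 TPM, and gastrin (Gast) gave 25, 20.4 and 55.3 TPM. Tph1, which makes the serotonin precursor, gave 8.18, 7.78 and 18.1 TPM, and Cartpt, a neuropeptide gene of islet cells, gave 7.86, 6.32 and 14.6 TPM. Iapp, Ins1, Gast, Tph1 and Cartpt thus had their highest value in control 3, and Sct its lowest. Insl5, a relaxin-like gut hormone gene, was low at 0.924, 3.08 and 1.96 TPM, and Tph2 was at 1.91, 1.20 and 0.554 TPM. The gene for GIP, an incretin of the gut, had 1.31 TPM in control 2 and 0 in the others. The somatostatin gene Sst had 0.510 TPM in control 2 and 0 in the others. Ppy, Pyy, Vip, Gal, Nts, Nmu and Calcb had 0 reads in all 3 clones. Ghrl, the ghrelin gene, stayed at or under 0.178 TPM, and Ucn3, a hormone gene of mature β cells, gave 0.472, 0.373 and 0.273 TPM.

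The β cell transcription factors were nearly complete. Of 25 genes, 23 reached 1 TPM and 19 reached 10 TPM in every clone, and 3 of the 23 had a 2-fold range, beside 8.32% of protein-coding genes. Pdx1, a homeodomain activator of the insulin genes, gave 2122, 2164 and 1634 TPM and ranked at place 35 of all genes. Nkx6-1, a homeodomain repressor needed in β cells, gave 1095, 1098 and 699 TPM. Mafa, a bZIP activator of mature β cells, gave 980, 861 and 545 TPM. Pdx1, Nkx6-1 and Mafa were each lowest in control 3, with highest-to-lowest ratios of 1.32, 1.57 and 1.80. The zinc finger gene Insm1 gave 490, 507 and 563 TPM, and the bHLH gene Neurod1 gave 399, 382 and 355 TPM. Nkx2-2 was at 321, 396 and 325 TPM and Isl1 at 284, 273 and 262 TPM. These 4 endocrine factors had log2 ranges of at most 0.30. The forkhead gene Foxa2 stood at 84.6, 86.5 and 72.3 TPM and the paired box gene Pax6 at 75.5, 73.4 and 80.2 TPM. Mlxipl, Mnx1, Sox4, Hopx, Foxo1, Hnf4a, Ldb1, Myt1, St18 and Glis3 had means between 54.6 and 16.1 TPM in that order, and Rfx6, Rfx3 and Esrrg lay below them. The 3 with a 2-fold range were Sox4 at 53.5, 65.1 and 26.7 TPM, St18 at 22.4, 20.01 and 9.64 TPM, and Rfx6 at 13.8, 8.79 and 21.4 TPM. The 2 missing factors were Foxa1, at 0.0484, 0.0510 and 0.336 TPM, and Tcf7l2, a Wnt pathway factor known from diabetes genetics, with 1 read in control 1 and 0 in the others.

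Of 15 progenitor factors 5 reached 1 TPM in every clone, and none of the 6 averaging 1 TPM or more had a 2-fold range, beside the same 8.32%. Prox1 led with 40.7, 36.5 and 37.2 TPM, followed by Hes1 at 12.2, 8.55 and 9.89 TPM and Gata4 at 11.1, 10.8 and 7.43 TPM. Neurog3, which starts endocrine fate, Ptf1a and Nr5a2 had 0 reads in all clones. Sox9, a duct and progenitor factor, stayed at or under 0.0844 TPM.

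Glucose sensing genes were led by G6pc2, a glucose-6-phosphatase subunit of islets, at 3276, 4132 and 3286 TPM. Of 26 genes, 19 reached 1 TPM in every clone and 2 of 20 had a 2-fold range, beside the same 8.32%, Slc2a2 and Slc16a1. Slc2a2, the glucose transporter of rodent β cells, gave 160, 65.0 and 172 TPM, so control 2 was low. Slc2a1 gave 9.10, 7.79 and 4.92 TPM and Slc2a3 at most 1.22 TPM. The low-Km hexokinase gene Hk1 stayed at 0.498, 0.801 and 0.265 TPM and Hk2 at or under 0.204 TPM. Hk3 and G6pc were each under 0.1 TPM. The pyruvate kinase gene Pkm gave 623, 627 and 635 TPM and pyruvate carboxylase (Pcx) 86.6, 83.1 and 77.7 TPM. Mdh1 was at 649, 628 and 648 TPM, while Ldha, the lactate dehydrogenase gene kept low in β cells, was at 1.63, 1.16 and 0.350 TPM. The glycolytic Pfkm, Pfkl, Pfkp and Pklr, the shuttle genes Gpd2, Got1, Got2 and Mdh2, and Glud1, Pdk1 and Ldhb lay between 6.02 and 199 TPM.

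Ldha belongs to the genes known to be kept off in β cells. Of 13 such disallowed genes 4 reached 1 TPM in every clone, and 7 did without control 3. Oat, which encodes ornithine aminotransferase, was far above the others at 397, 369 and 214 TPM. The monocarboxylate carrier gene Slc16a1 gave 23.7, 30.4 and 11.5 TPM, and the growth factor receptor gene Pdgfra 17, 7.28 and 2.19 TPM. Mgst1, Maf, Rarres2 and Cxcl12 stayed at or under 0.329 TPM. Of the 7 members averaging 1 TPM or more 6 were lowest in control 3, as deposited and under each of the 5 other scalings, beside 61.1% of the 11965 protein-coding genes as deposited and 45.5% to 64.3% under the others.

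Genes of the granule and of proinsulin cutting were all present. All 21 reached 10 TPM in every clone, 18 of them reached 100 TPM, and 2 had a 2-fold range, beside 8.32% of protein-coding genes. The granin genes Chga, Chgb and Scg2, whose proteins build the granule core, gave means of 10944 ± 1390, 9689 ± 3442 and 9575 ± 632 TPM (n = 3). Chgb was the granin that varied, at 10299, 12786 and 5983 TPM. The granule zinc transporter gene Slc30a8 varied in the other direction, at 215, 191 and 744 TPM, with control 3 at 3.90 times the lowest clone. By contrast Scg5, a chaperone of the convertase PC2, gave 1440, 1447 and 1454 TPM. Ptprn, a granule membrane protein gene, gave 1461, 1626 and 1193 TPM, and Ero1lb, an oxidase of the β cell endoplasmic reticulum, 1368, 1580 and 1287 TPM. Prss53, a serine protease gene on the list of β cell maturity, was at 72, 62 and 153 TPM.

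The potassium channel pair that closes on ATP was even between clones. Abcc8, its sulfonylurea receptor subunit, gave 211, 216 and 232 TPM, and Kcnj11, its pore, 88.1, 93.5 and 99.9 TPM. The cardiac and vascular counterparts Kcnj8 and Abcc9 stayed at or under 0.153 TPM. Of 23 channel genes 17 reached 1 TPM in every clone and 4 of 18 had a 2-fold range, beside 8.32% of protein-coding genes. Kcnk16, a background potassium channel gene of islets, gave 140, 113 and 258 TPM, and Kcnk3 gave 20.4, 14.3 and 3.56 TPM. The T-type calcium channel gene Cacna1h gave 22.7, 22.8 and 8.84 TPM, against 5.94, 6.24 and 5.49 TPM for the L-type Cacna1d. The sodium channel gene Scn9a was at 3.10, 1.15 and 0.0577 TPM. In the exocytosis list 25 of 26 genes reached 1 TPM in every clone and none of 25 had a 2-fold range, beside the same 8.32%. Syt13 led this list at 1025, 1074 and 1572 TPM, followed by the complexin gene Cplx2 at 410, 392 and 459 TPM and Syt4 at 318, 330 and 243 TPM. Doc2b alone stayed near the threshold, at 0.720, 0.421 and 1.02 TPM.

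Of 30 receptor genes 21 reached 1 TPM in every clone, and 5 of 22 had a 2-fold range, beside the same 8.32%. Ffar1, a fatty acid receptor that raises insulin secretion, was at 416, 427 and 536 TPM and the adrenergic receptor gene Adra2a, which lowers it, at 410, 360 and 281 TPM. Glp1r, the incretin receptor, gave 1068, 964 and 494 TPM. Among the somatostatin receptors Sstr3 was present at 145, 153 and 159 TPM and Sstr5 at 13.4, 11.9 and 21.7 TPM, while Sstr1, Sstr2 and Sstr4 stayed at or under 0.232 TPM. The prolactin receptor gene Prlr was at 1.89 and 1.43 TPM in controls 1 and 2 and at 16.3 TPM in control 3. Adora1 was at 7.25, 12.4 and 20.7 TPM. The glucagon receptor gene Gcgr stayed at or under 0.0515 TPM.

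Lists for other cell types ranged from nearly absent to partly present. At least 1 TPM in every clone was reached by 5 of 11 α cell, 3 of 9 δ, PP and ε cell and 4 of 12 duct markers. Acinar markers were nearly absent, with 19 of 20 under 1 TPM in all clones and 13 at 3 reads or fewer in each, and the exception was Bhlha15, a secretory cell factor, at 74.7, 71.5 and 60.3 TPM. In the α cell list Irx2 had 0 reads, while Ttr, Gcg and the amino acid carrier gene Slc38a5, at 513, 514 and 647 TPM, were high. The vitamin D carrier gene Gc gave 80.9, 66.2 and 326 TPM. Of the δ, PP and ε list Hhex, Ppy and Pyy had 0 reads, and Crhr1 was at 188, 170 and 197 TPM, Etv1 at 60.7, 63.2 and 43.1 TPM and Rbp4 at 40.002, 32.7 and 23.9 TPM. Among duct markers Krt19 had 0 reads and Cftr at most 0.0129 TPM, but Krt8 was at 224, 184 and 267 TPM. Onecut2, at 59.7, 57.5 and 41.0 TPM, and Car2, at 2.68, 1.86 and 0.186 TPM, were lowest in control 3. The keratin genes Krt7 and Krt18 were at 72.9 and 37.3 TPM in control 3, against at most 3.55 and 9.23 TPM in the other clones. Cdh1, the epithelial cadherin, followed the same order, at 10.5, 7.68 and 34 TPM, while Cdh2 was even at 79.7, 83.7 and 83.1 TPM. Endothelial Pecam1, Cdh5, Kdr and Flt1 and leukocyte Ptprc, Cd3e and Itgam stayed under 0.3 TPM. Their summed lists were 17.4, 19.7 and 15.1 TPM for 10 endothelial genes, mostly Esam, and 8.49, 8.52 and 5.21 TPM for 11 leukocyte genes. The highest leukocyte genes were Lyz2 at 3.71, 5.03 and 0 TPM, Cd68 at 2.76, 0.967 and 1.77 TPM and Fcer1g at 1.32, 1.60 and 1.65 TPM. In the mesenchymal list 2 of 15 genes reached 1 TPM in every clone, and 4 did without control 3. The 2 were Pdgfra and Snai2, a zinc finger repressor gene, at 28.2, 33.4 and 15 TPM. The 9 genes of the X inactivation and Y chromosome list all stayed under 1 TPM.

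β cells share many genes with neurons, and neuronal genes were widely present here. Of 22, 18 reached 1 TPM in every clone and 5 of the 18 had a 2-fold range, beside 8.32% of protein-coding genes. Syp, a synaptic vesicle protein gene, gave 412, 424 and 317 TPM, the neurofilament gene Nefl 388, 380 and 287 TPM and Uchl1 271, 321 and 292 TPM. Th and Ddc, which make dopamine, were at 82.2, 79.2 and 109 TPM and at 163, 161 and 194 TPM. The GABA-making enzyme gene Gad2 was at 23.4, 11.9 and 27.7 TPM, whereas Gad1 was at or under 0.0656 TPM and the vesicular carriers Slc32a1 and Slc17a6 at or under 0.0675 TPM. Dcx, which binds microtubules in young neurons, gave 150, 138 and 67.5 TPM. Elavl4 at 16.6, 17.1 and 7.78 TPM and Stmn2 at 12.6, 17.5 and 7.16 TPM were also lowest in control 3, while Gap43, at 15.6, 28.7 and 34 TPM, was highest there. In the glial list Sox10, S100b and Olig2 had 0 reads, and Aqp4, a water channel gene, gave 25.7, 17.6 and 8.15 TPM. In the liver list the most abundant after Ttr was Crp, Apob gave 16.5, 7.83 and 2.13 TPM, and Alb stayed at 1.55, 0.886 and 0.450 TPM.

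**Figure D2:**
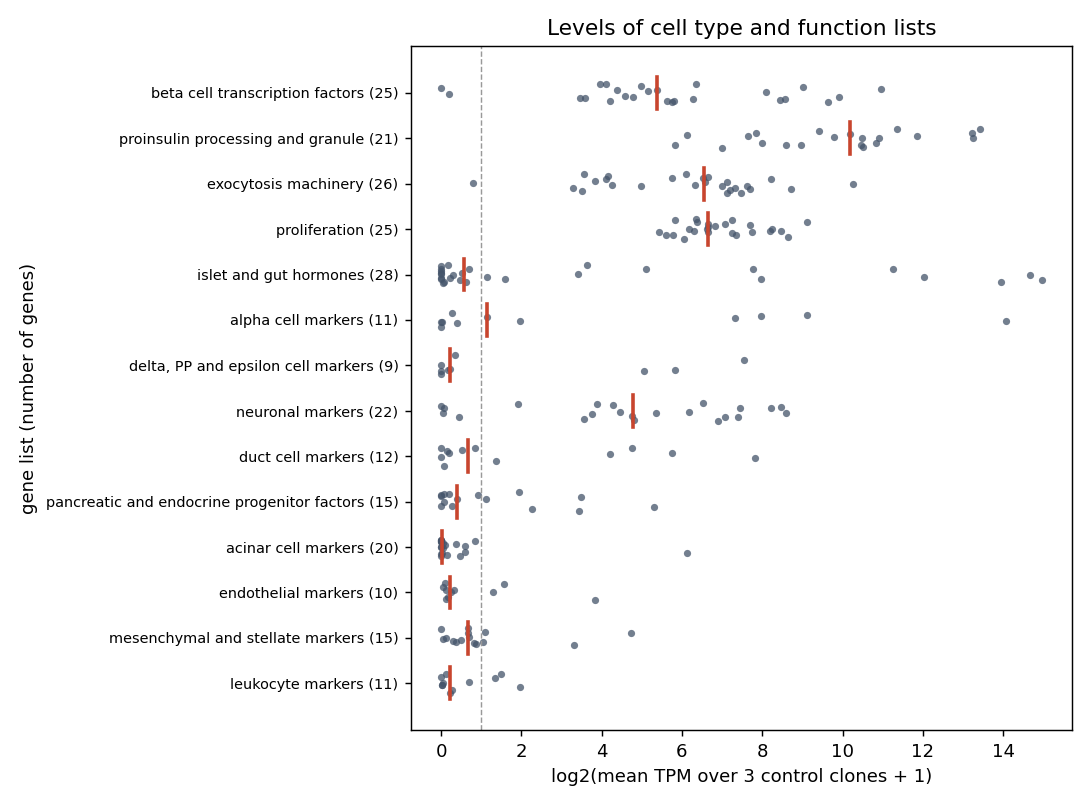
Mean level over the 3 control clones as log2(mean TPM + 1) for each gene of 14 lists, with 1 grey point per gene, a red bar at the list's median and a dashed line at 1 TPM. The β cell factor, granule, exocytosis and proliferation lists lie almost wholly to the right of the line, and acinar markers, with 1 of 20 genes past it, almost wholly to the left. Of the mesenchymal, endothelial and leukocyte markers 4 of 15, 3 of 10 and 3 of 11 lie past the line.

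Cell cycle genes were high throughout. All 25 proliferation genes reached 10 TPM in every clone and none had a 2-fold range, beside 3.03% to 5.44% of protein-coding genes in the level classes from 10 TPM up, so a count of 0 is near that share. Mki67, a marker of cycling cells, gave 636, 545 and 491 TPM and Top2a 444, 386 and 372 TPM. Ccnd2 had the most abundant D-type cyclin transcript, at 707, 825 and 633 TPM, while Ccnd3 was at 5.31, 4.82 and 4.89 TPM and Ccnd1 at or under 0.0614 TPM. Its partner Cdk4 was at 117, 113 and 119 TPM, and Cdk6 at or under 0.156 TPM. The inhibitor gene Cdkn2c gave 572, 524 and 537 TPM and Cdkn2a 254, 239 and 204 TPM. All 22 endoplasmic reticulum stress and folding genes reached 1 TPM and none had a 2-fold range, beside the same shares, with Hspa5, the main chaperone, at 1287, 1184 and 1178 TPM. Among 16 reference genes, none of which had a 2-fold range either, Eef1a1 gave 2740, 2724 and 2605 TPM and Actb 466, 466 and 382 TPM. The 5 genes of lowest variation averaging 100 TPM or more were Ndufa9, a subunit of respiratory complex I, Babam1, Scg5, Rps26 and Sec11c. Their coefficients of variation were 0.120%, 0.402%, 0.4998%, 0.522% and 0.526%, and Ndufa9 stood at 129 TPM in all 3 clones.

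Developmental gene families differed in how many members were present. Of 39 Hox genes none reached 1 TPM and 37 had 0 reads in every clone, and the 6 Irx and 6 Dlx genes all stayed under 1 TPM. Of 19 Sox genes 2 reached 1 TPM in every clone, Sox4 and Sox12, and the latter, at 15.6, 17.8 and 1.36 TPM, was nearly lost in control 3. Pax6, Pax2 and Pax5 were the Pax genes present, with Pax2 at 9.98, 14.0 and 5.97 TPM. Of the Gata genes only Gata4 reached 1 TPM in every clone, and Gata2 gave 7.67, 8.91 and 0.584 TPM. Nkx6-2 was at 24.8, 29.1 and 21.6 TPM. Of 6 sine oculis family genes 5 were present, and Six3, a forebrain and eye factor known from adult β cells, was at 16.5, 14.3 and 2.89 TPM. Among LIM factors Lhx1 gave 54.6, 51.4 and 29.3 TPM, and Lhx2, Isl2 and Lhx6 were under 10 TPM. Pou4f1, at 11.1, 12.4 and 16.2 TPM, was the highest Pou gene. Of 44 Fox genes 19 reached 1 TPM in every clone, led by Foxk2 at 113, 118 and 102 TPM. Onecut2, at 59.7, 57.5 and 41.0 TPM, was the only Onecut gene present and Tbx15, at 31.3, 39.8 and 9.54 TPM, the only Tbx gene. Sp8 led the Sp and Klf genes, of which 17 of 26 were present, at 164, 95 and 56.3 TPM. Of 1107 olfactory receptor genes 1 reached 1 TPM in every clone. Some of these small counts rest on 1 clone. Without control 3 the Sox count was 4 and the Gata count 2, without control 1 the Tbx count was 2, and without control 2 the olfactory receptor count was 2.

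Mitochondrial genes held 13.6%, 14.6% and 9.17% of the TPM in controls 1, 2 and 3. Of the 34 averaging 1 TPM or more, 27 were lowest in control 3 as deposited, beside 55.9% of all 15311 genes, and 26 or 27 were under each other scaling that kept them, beside 42.7% to 55.3%. mt-Nd1, a complex I subunit, gave 24245, 25526 and 14275 TPM, whereas mt-Cytb, of complex III, was closer at 22747, 24324 and 19979 TPM. mt-Co2, mt-Co3 and mt-Atp6 read only 18.8, 24.6 and 34.5 TPM on average, although they lie in the same genome as mt-Co1. Near-identical nuclear copies exist for parts of the mitochondrial genome, so these low values are uncertain. The cytosolic ribosomal protein genes moved the other way. Of 82 averaging 1 TPM or more, 75 were highest in control 3, beside 28.9% of all genes, and 72 to 77 were so under the other scalings, beside 27.1% to 42.02%. None had a 2-fold range, and the family sum was 28711, 28657 and 35756 TPM. Rps14 was an example, at 467, 456 and 774 TPM. The loci Gm42418, Gm23935, Gm24187, Mir6236 and Gm26917, known to collect reads of ribosomal RNA, summed to 1.56%, 1.67% and 7.88% of the TPM. Their part in the differences of control 3 was tested only by rescaling without them, given below.

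Controls 1 and 2 were nearer to each other than either was to control 3. Over 11229 genes averaging 5 TPM or more, Pearson's r of log2(TPM + 1) was 0.981 between controls 1 and 2, 0.941 between 1 and 3 and 0.934 between 2 and 3. These r are across genes of single libraries, share the same gene lengths and carry no p. A 2-fold difference separated controls 1 and 2 in 671 genes (4.38%), controls 1 and 3 in 1514 (9.89%) and controls 2 and 3 in 1565 (10.2%). The median gene of control 3 lay 0.15 lower in log2 than the mean of the other two, and the counts that follow are to be read relative to that shift. Control 3 stood 2-fold or more above both others in 374 genes (2.44%) and below both in 602 (3.93%), together 6.37%. After median-ratio scaling, which removes the shift, these were 494 and 492, and after leaving the ribosomal RNA loci out of the total they were 453 and 539. Control 1 stood above in 140 and below in 109 genes (0.914% and 0.712%, together 1.63%), and control 2 above in 110 and below in 201 (0.718% and 1.31%, together 2.03%). The shift in control 3 was spread over the chromosomes: the median difference from the other clones lay between -0.23 and -0.039 on each of the 19 autosomes, and at -0.33 over 390 genes of chromosome X. Many such calls rest on few reads, and the intervals used next treat each recovered read as independent. With the added demand that exact 95% Poisson intervals of the reads did not overlap, 63, 78 and 632 genes remained in which control 1, 2 or 3 stood apart.

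**Figure D3:**
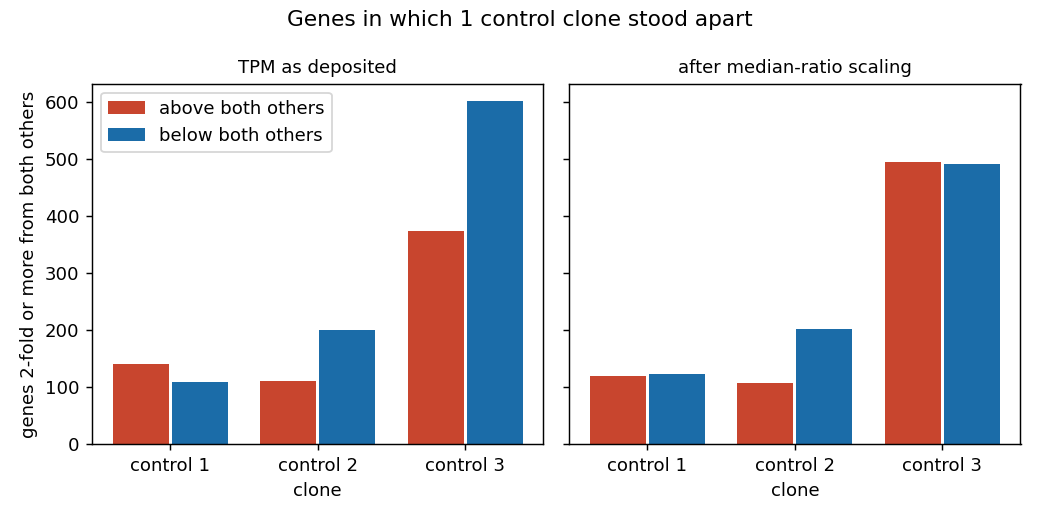
Number of genes at least 2-fold above (red) or below (blue) both other clones for each control clone, as deposited and after median-ratio scaling. Control 3 has the tallest bars on both scales, and its bars change from 374 and 602 to 494 and 492.

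The spread fell with level and differed by kind of RNA. Among protein-coding genes a 2-fold range was seen in 24.7% at a mean of 1 to 2 TPM and in 3.57% at 100 TPM or more. The median coefficient of variation of protein-coding genes was 13.4%, against 3.06% from counting alone, with each recovered read taken as independent. For annotated miRNA genes, most of them on few reads, the figures were 95.4% and 86.6%, and 86.6% of 217 had a 2-fold range. Long intergenic RNAs were between, with 29.2% of 517.

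Several genes were on in 1 clone and nearly silent in another. In control 3 Eef1a2, the muscle and neuron form of elongation factor 1α, was at 626 TPM against 2.01 and 2.73 TPM in controls 1 and 2. S100z was at 106 TPM there and at 0.437 and 0.461 TPM in the others. Tmem35a had 197 reads in control 3 and 0 in the others. The other 3 genes furthest above in control 3, Gm24245, Mir219c and Gm48503, rested on 12, 7 and 22 reads. Furthest below in control 3 were Ildr2 at 35.5, 38.4 and 0.0479 TPM, Qpct, whose enzyme closes the N-terminus of peptide hormones, at 37.4, 69.0 and 0.105 TPM, and the X-linked homeobox gene Rhox5 at 284, 73.2 and 1.31 TPM. The protocadherin gene Pcdhb5 at 28.7, 38 and 0.229 TPM, Gng2 at 28.6, 39.4 and 0.305 TPM and Susd5 at 19.9, 39.3 and 0 TPM completed the 6.

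In control 2 the cadherin gene Cdh19 was at 120 TPM on 3066 reads, against 0 and 2 reads in controls 1 and 3. 4930550L24Rik was at 0.322, 126 and 0 TPM. Hvcn1, a voltage-gated proton channel gene, followed at 1.54, 23.8 and 1.18 TPM and Gm773 at 42.9, 268 and 10.2 TPM. Gm23344, also among those furthest above, had 4 reads there. Below both others were Nrn1, which encodes neuritin, at 18.3, 0.151 and 30.0 TPM, Renbp at 13.6, 0.260 and 23.2 TPM and Minar2 at 12.9, 0.208 and 6.96 TPM. Mir7028, Mir6938 and Vmn2r-ps58 were also among these 6, on 13 reads or fewer.

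Control 1 had fewer such genes. Gm28703 had 232, 9 and 0 reads, and the other 5 furthest above, Mir6905, Mir7664, Gm19774, Gm23811 and Mir344d-1, had 4 to 7 reads and 0 in both others. Among protein-coding genes with at least 20 reads in a clone, a set chosen after the values were seen, Xlr3c led at 141, 7.89 and 12.2 TPM and Fxyd6 followed at 11.6, 0.464 and 0.272 TPM. Furthest below were Nap1l2 at 0.496, 34 and 13.4 TPM, the potassium channel gene Kcnk1 at 0.788, 11.5 and 38 TPM and Adm2 at 2.29, 15 and 22.3 TPM. Mir6993, Gm22574 and Gm23873 made up that group on 6 reads or fewer.

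A block of neighbouring genes on chromosome 9 was higher in control 3. It was found by scanning windows of 40 neighbouring genes averaging 5 TPM or more, so its values are a description, with no test. The window that moved most of all in any clone had a median difference of 1.07 in log2(TPM + 1), control 3 minus the mean of controls 1 and 2, after each clone was centred on its own median. Extended while the running median of 5 genes stayed at 0.5 or more, the block ran from Dcaf1 to Plxnb1, chr9:106821874-109119917 (mm10), a span of 2.30 Mb with 48 genes at that level. In all 48 control 3 was the highest clone, under each of the 5 other scalings too. The centred differences lay between 0.53 and 1.81 with a median of 1.05, or 2.07-fold. Of the 11181 genes outside the block 10.9% reached a difference of 0.5, and control 3 was the highest clone in 26.5%.

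The block holds genes of many roles. Rhoa, a small GTPase that steers the actin skeleton, gave 110, 105 and 188 TPM. Manf, a secreted endoplasmic reticulum stress protein gene, gave 192, 177 and 313 TPM. Gnai2, an inhibitory G protein subunit gene, gave 73.3, 66.9 and 114 TPM. Impdh2, which makes guanine nucleotides, was at 41.7, 42.5 and 97.5 TPM and the respiratory complex III gene Uqcrc1 at 43.3, 42.7 and 83.0 TPM. Controls 1 and 2 had a median difference of 0.0061, with single genes between -0.49 and 0.30. The members nearest the 0.5 line were Gpx1, at 94.3, 95 and 121 TPM, and Bsn, at 8.95, 9.83 and 12.6 TPM. The ends of the block were set from these same differences, so a drop at each end follows from that rule. Rad54l2, the last gene before the block, had a centred difference of 0.078 and Fbxw24, the first gene after it, -0.67, and the 20 genes before and after had medians of 0.045 and -0.016. Of the 48 genes, 13 overlap another of the block, so their reads are not fully independent. DNA copy number was not measured in these files.

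**Figure D4:**
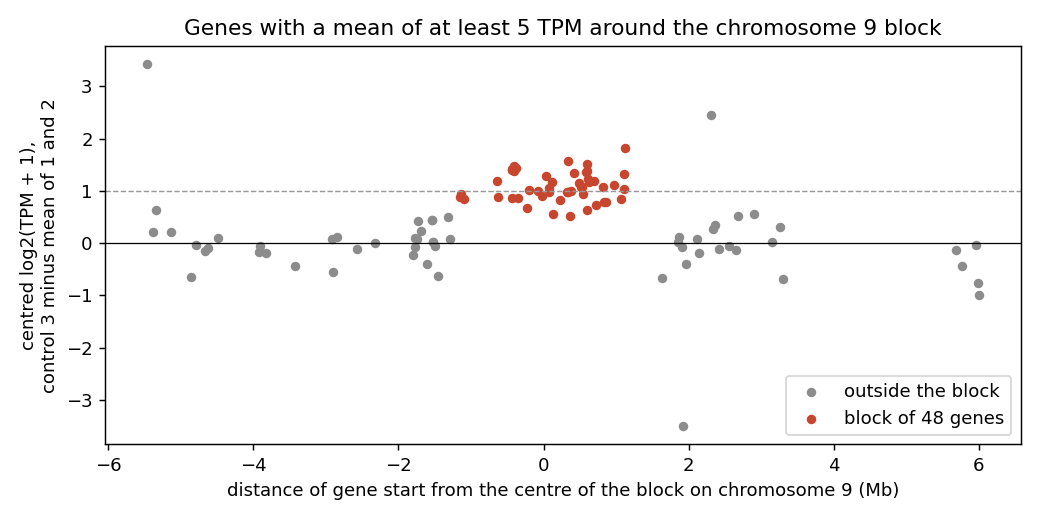
Centred log2(TPM + 1) of control 3 minus the mean of controls 1 and 2 for genes averaging 5 TPM or more, by distance of the gene start from the centre of the block in Mb. The 48 genes of the block (red) lie between 0.53 and 1.81, around the dashed line at 1, while genes on both sides (grey) scatter around 0.

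A group of genes foreign to β cells had reads in controls 1 and 2 and few or none in control 3. The 28 heart muscle and 4 hemoglobin genes named here were listed after their values were seen. Myh6, the heart α-myosin gene, had 342, 432 and 0 reads, the myoglobin gene Mb 269, 296 and 0 reads and the heart myosin light chain gene Myl2 212, 272 and 0 reads. Actc1, heart α-actin, had 116, 157 and 0 reads and Hbb-bs, adult β-globin, 115, 110 and 0 reads. In TPM the 28 heart muscle genes summed to 91.7, 102 and 12.1, of which Tnnc1, Myl7 and Ryr2, which had reads in all 3 clones, made up most in control 3. Of 13388 genes with at least 20 reads in both controls 1 and 2, 62 had at most 1 in control 3. The heart muscle list, drawn up after these values were seen, held 22 of the 13388 and 18 of the 62. Only 2 of 12901 genes were missing in the same way from control 1, and 2 of 13020 from control 2. Markers of connective tissue, vessels and blood cells were also among the genes missing from control 3. Of the mesenchymal markers with at least 4 reads in both controls 1 and 2, 6 of 13 had 0 reads in control 3, as had 3 of 9 endothelial, 3 of 7 leukocyte and 2 of 5 acinar markers, beside 1.95% of all 16566 genes with such reads. In other lists this was so for 2 of 9 progenitor factors, 2 of 11 disallowed genes, 1 of 6 epithelial adhesion genes, 1 of 8 α cell markers and 1 of 10 immaturity genes, and for none of 7 duct, 4 glial, 8 liver and 19 neuronal markers. The mesenchymal genes were Col3a1, at 122, 119 and 0 reads, Sparc, at 47, 64 and 0 reads, and Vim, Acta2, Lum and Col6a1. The endothelial genes were Cdh5, Kdr and Flt1, and the leukocyte genes were Ptprc, Adgre1 and the lysozyme gene Lyz2, at 28, 36 and 0 reads. Among the other leukocyte markers Cd74, at 4, 7 and 27 reads, and Csf1r, at 14, 8 and 32 reads, were highest in control 3. The limit of 4 reads admits genes of few reads. With at least 20 reads in both controls 1 and 2, 3 of 10 mesenchymal and 1 of 1 leukocyte markers had 0 reads in control 3. No endothelial (0 of 4), acinar (0 of 2) or progenitor (0 of 7) marker did, beside 0.329% of all 13388 such genes. The source of the reads in controls 1 and 2 was not tested.

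**Figure D5:**
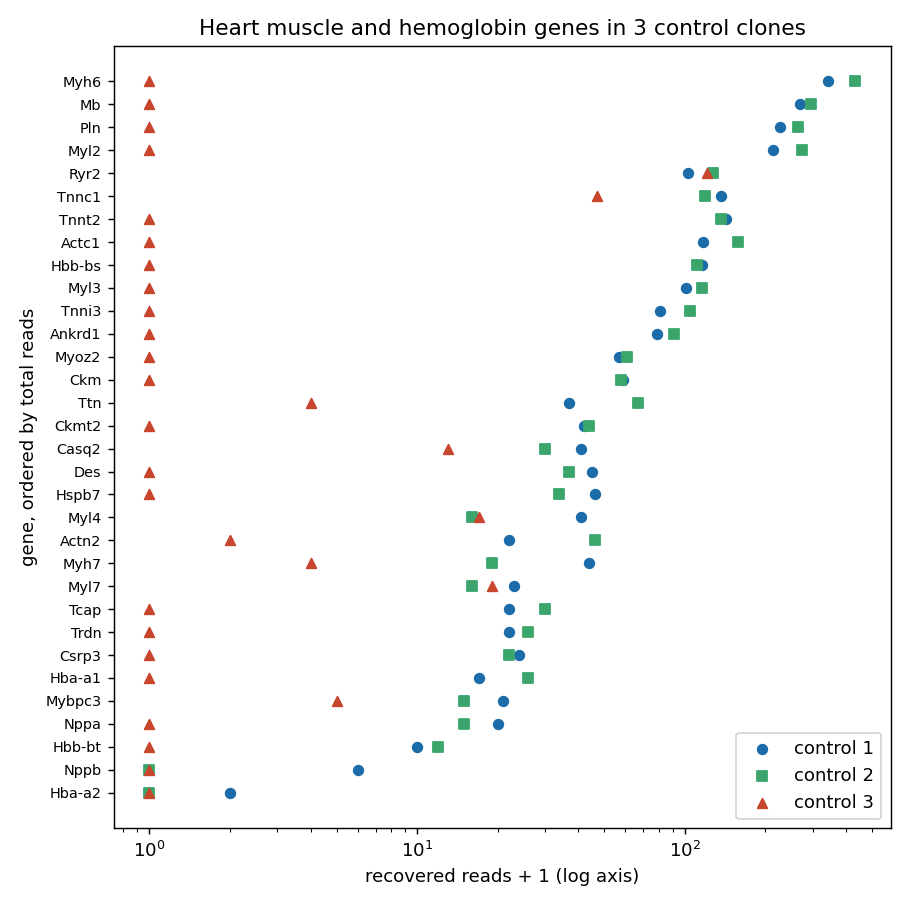
Recovered reads plus 1 (log axis) of 28 heart muscle and 4 hemoglobin genes in the 3 control clones, ordered by total reads. Most red triangles, for control 3, sit at 0 reads, while controls 1 and 2 lie side by side, up to 342 and 432 reads for Myh6.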

How the data were processed

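RNA of 3 control MIN6 clones was made into cDNA and Nextera XT libraries and sequenced. The deposited values are TPM per gene, made by the authors with mm10. The submitters' processing notes name FastQC, Trimmomatic, HISAT2, HTSeq and DESeq2 without versions. The 92 ERCC and 7 SIRV spike-in rows were left out, and only 1 ERCC row was above 0, at 1.02 TPM in control 3.

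Of 53801 gene IDs 53706 matched GENCODE M21, which gave symbols, positions and exon lengths. TPM times summed exon length were whole multiples of 1 read (tolerance 0.01) for 93.7% of the 26565 genes above 0, and a searched length gave whole reads for the other 1676. Recovery and 2-fold calls were tested on simulated data.

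Calls used genes averaging 1 TPM or more and a 2-fold difference in log2(TPM + 1), a scale that understates changes of low genes. No p-value was computed. Named genes were the 20 of highest mean, list members by role, the 6 furthest above and below in each clone among genes of at least 10 TPM, and the 5 of lowest variation. A few genes that this rule would name are not reported here. The members and lists were chosen with earlier results of these data known. Alternatives were the pseudocount, filter, scaling, gene length, reads and leaving out each clone. Analyses used Python 3.11.15, pandas 2.3.3 and SciPy 1.17.1.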

Additional observations from a re-analysis of the deposited data

How the results depend on the processing

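No paired analysis was possible because a single group, with 1 library per clone, is described. The 671 genes that separated controls 1 and 2, and the 249, 311 and 976 genes in which control 1, 2 or 3 stood apart, became 1107, 442, 560 and 1463 with a pseudocount of 0.1 and 1163, 489, 580 and 1519 with 0.01. Without a filter the first 3 became 1146, 478 and 482. Among genes averaging 5 TPM or more the 2-fold range held 915 genes, the pairs 183, 652 and 668, and the clones standing apart 47, 89 and 452. With Poisson intervals that do not overlap these were 1317, then 200, 937 and 953, then 63, 78 and 632, and for protein-coding genes only, an alternative added after seeing the data, 996, then 158, 744 and 748, then 55, 69 and 530. With each exonic base counted once control 1 stood apart in 156 genes. Leaving out a clone gave 709 to 1588 genes with a 2-fold range, the lowest without control 3. The shares of the insulin genes, the top 20 and the mitochondrial genes (1.99%, 28.8% and 12.4%) became 3.60%, 21.8% and 7.75% with each exonic base counted once and 1.35%, 8.30% and 2.75% of reads. The lowest chromosome median in control 1 was 0.065 as deposited, -0.043 with median-ratio scaling and -0.029 with quantile normalization. That of control 2 was 0.0043 as deposited, -0.018 without a filter, -0.0079 among genes averaging 1 TPM or more, -0.035 with median-ratio scaling and -0.041 with quantile normalization. The highest chromosome median in control 3 was -0.039 as deposited, 0.11 with median-ratio scaling and 0.095 with quantile normalization. The lowest in control 3, the mitochondrial genome at -0.77, kept its sign in all 5 alternatives. Rescaling without the ribosomal RNA loci and leaving out the chromosome 9 block, also added after seeing the data, gave 992 and 964 genes in which control 3 stood apart. The split of control 3 into genes above and below was 475 and 503 with quantile normalization. Depth limits genes of few reads, in which small RNAs abound.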

Other observations

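A pair of further gene groups was described after their values were seen, so their counts follow in part from that choice and are no test. On chromosome 13, 48 histone genes of the Hist1h cluster averaging 1 TPM or more had medians of 9.92, 4.77 and 6.75 TPM in controls 1, 2 and 3. Control 1 was highest in 37 of the 48 and control 2 lowest in 37, beside 41.8% and 27.2% of all 15311 genes. Under the other scalings these counts were 35 to 37 and 36 to 40, beside 25.98% to 39.5% and 23.3% to 31.99%. The linker histone gene Hist1h1c gave 950, 579 and 721 TPM. On chromosome 17, 20 zinc finger genes named Zfp averaging 5 TPM or more, between chr17:21008903-23193252 (mm10), were all lowest in control 3, under each of the other scalings too, beside 61.1% of protein-coding genes as deposited and 45.5% to 64.3% under the others. Their medians were 27.6, 25.9 and 13.6 TPM, and the most abundant, Zfp948, gave 139, 142 and 70.1 TPM.

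Of 18 interferon and antigen presentation genes 14 reached 1 TPM in every clone and 4 of 15 had a 2-fold range, beside 14.5% of all genes and 8.32% of protein-coding genes. The class I gene H2-K1 gave 120, 87.9 and 225 TPM, and the immunoproteasome gene Psmb8 gave 21.1, 13.1 and 3.39 TPM. The interferon-induced Isg15 was at 7.85, 0.243 and 2.67 TPM and Irf7 at 3.97, 1.90 and 1.11 TPM. H2-K1 has near-identical class I relatives, so its reads may be split.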
